A study of Mus musculus with 6 samples.

Results

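The genes described here encode the enzymes and the vesicle transporter of the inhibitory transmitter GABA (Gad1, Gad2 and Slc32a1) and 3 calcium-binding proteins used to tell interneuron classes apart (Pvalb, Calb1 and Calb2). They were chosen by gene symbol: every probe set that the platform annotation assigns to 1 of these 6 genes was taken, which gave 7 of the 12488 probe sets on the array. All 7 were bright enough to pass the filter on dim probe sets. The arrays hold RNA of visual cortex from wild-type (C57Bl6) adult mice in which one eye was removed at postnatal day 100, with tissue taken 4 days later. Deprived cortex (3 arrays) lies opposite the removed eye. Non-deprived cortex (3 arrays) lies on the same side as the removed eye, so both groups come from animals that underwent the surgery, and no unoperated animal is among them. The labels speak of 4 mice and of pooled samples and do not say which mice entered which array. The p-values therefore measure only the spread between these arrays, which may be technical.

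GABA is made from glutamate by 2 glutamate decarboxylases. GAD67, the product of Gad1, makes most of the GABA in the cell body, and GAD65, the product of Gad2, is concentrated at axon terminals. The transporter VGAT, the product of Slc32a1, then loads GABA into synaptic vesicles. Parvalbumin, calbindin and calretinin, the products of Pvalb, Calb1 and Calb2, bind calcium through EF-hand loops and buffer its rises in the cell. In the cortex, parvalbumin marks fast-spiking basket and chandelier cells, calretinin marks largely interneurons that target other interneurons, and calbindin is found in several interneuron classes and in some pyramidal cells. In monkey visual cortex, loss of input from an eye is known to lower GAD and GABA immunostaining in the columns of that eye.

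The comparison asks whether these transcripts differed between the side that lost most of its visual drive and the side that kept it. None of the 7 probe sets passed the test. By limma, with p-values adjusted (Benjamini-Hochberg) over the 7453 tested probe sets and a threshold of 0.05, 0 of the 7 were called, against 13 of all tested probe sets, or 0.174%. At an unadjusted p under 0.05, 1 of the 7 was lower in deprived cortex (Pvalb on its _i probe set), against 2.42% of all tested probe sets lower by that measure. The arrays of the groups overlapped for all 7, while they did not overlap for 10.1% of all tested probe sets. Log2 changes, taken as deprived minus non-deprived on log2(signal + 16), lay between -0.25 and 0.12, with a median of -0.09 beside 0.01 for all tested probe sets. Their median size without regard to sign was 0.12, beside 0.13 for all tested probe sets. Counted by direction alone, 5 of the 7 had a lower mean in deprived cortex, as had 47.8% of all tested probe sets. In RNA of whole cortex, fewer cells of a type and less RNA per cell cannot be told apart.

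Fos, whose transcription neurons switch on with activity, served as the comparison gene for the effect of deprivation on these arrays. It read 758.2, 602.1 and 749.3 signal units in deprived cortex, against 2837.1, 2784.2 and 3217 in non-deprived cortex (log2 change -2.05, SE 0.12, limma adjusted p = 0.00014). The 3 deprived arrays were all far below the 3 non-deprived ones. No 95% interval of a member reached a change of that size, the widest being that of Gad2. Fos was picked with its fall already known and had the smallest p of all 7453 tested probe sets. Its change therefore sets no size that a response of the members should have reached.

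**Figure D1:**
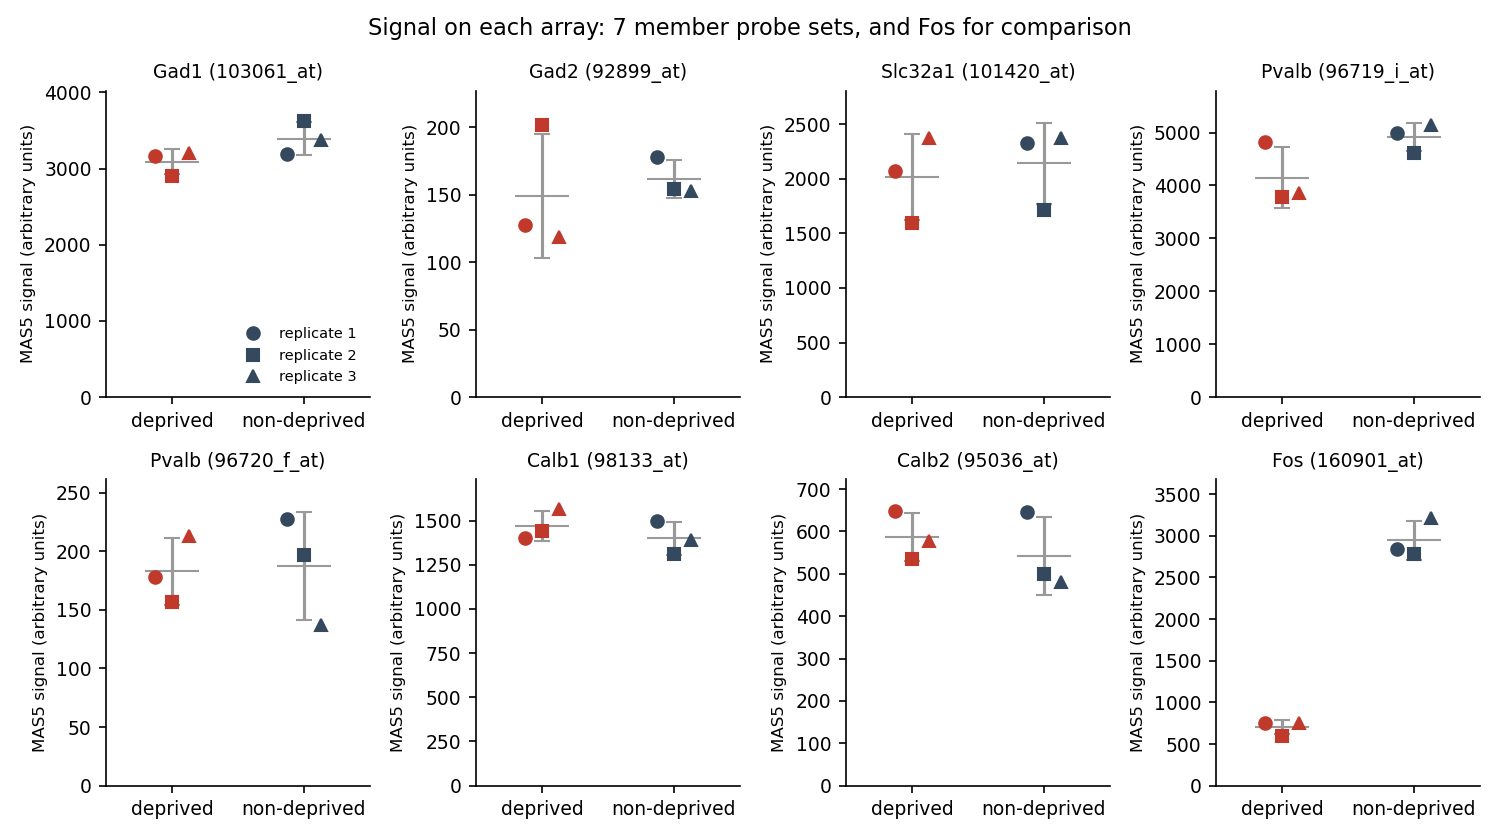
MAS5 signal (arbitrary units, linear axes from 0) of the 7 member probe sets and, for comparison, Fos, on the 3 deprived (left, red) and the 3 non-deprived (right, dark) arrays. Marker shapes give the replicate number in the titles, and grey bars give mean ± SD. The groups overlap for all 7 members and are apart for Fos.

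The promoters of the members are set beside that of Fos here because Fos fell and no member passed the test. RefSeq's table (GRCm38.p6) held windows for 4 of the 6 genes (Gad1, Gad2, Slc32a1 and Pvalb), and the 250 bases before the annotated start were searched. The motifs were the cAMP response element TGACGTCA and its core TGACG, the AP-1 site TGANTCA, the Egr site GCGNGGGCG, the CArG box and the MEF2 box, on both strands, and the TATA box TATAAA on the gene's strand. The core overlaps the full cAMP response element. The windows of Gad1 (chr2:70561879-70562128, plus strand), Gad2 (chr2:22622077-22622326, plus strand), Pvalb (chr15:78206401-78206650, minus strand) and Fos (chr12:85473640-85473889, plus strand) follow, each read 5′ to 3′ on the gene's strand, with matched letters in capitals.
Gad1: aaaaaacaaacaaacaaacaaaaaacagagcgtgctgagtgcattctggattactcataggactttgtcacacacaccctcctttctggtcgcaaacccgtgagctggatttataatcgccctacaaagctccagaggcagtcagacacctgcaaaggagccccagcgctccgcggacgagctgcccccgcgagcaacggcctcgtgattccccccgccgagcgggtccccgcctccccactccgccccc
Gad2: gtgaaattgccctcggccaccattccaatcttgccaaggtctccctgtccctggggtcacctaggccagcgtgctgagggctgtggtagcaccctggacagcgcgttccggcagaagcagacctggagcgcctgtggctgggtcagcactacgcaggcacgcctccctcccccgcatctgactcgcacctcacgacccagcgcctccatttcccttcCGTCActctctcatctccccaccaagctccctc
Pvalb: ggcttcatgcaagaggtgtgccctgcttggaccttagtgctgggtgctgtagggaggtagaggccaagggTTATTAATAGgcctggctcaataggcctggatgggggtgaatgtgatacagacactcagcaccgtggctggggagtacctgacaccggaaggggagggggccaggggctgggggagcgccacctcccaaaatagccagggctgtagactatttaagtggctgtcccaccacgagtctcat
Fos: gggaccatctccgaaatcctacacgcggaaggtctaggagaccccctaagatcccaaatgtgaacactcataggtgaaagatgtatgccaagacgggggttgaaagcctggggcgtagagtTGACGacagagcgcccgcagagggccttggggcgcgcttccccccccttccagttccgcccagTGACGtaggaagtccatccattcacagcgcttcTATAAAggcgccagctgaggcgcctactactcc
The Fos window held the core TGACG at 2 places, starting 129 and 66 bases before the start, and a TATA box starting 33 bases before it. The Gad2 window held the core at 1 place, on the opposite strand, starting 33 bases before the start. The printed Pvalb window held a MEF2 box starting 180 bases before the start, and the window of the other annotated Pvalb start held none of the motifs. The windows of Gad1 and Slc32a1 held none of them either. Of 32851 promoter windows of this length, 17.8% held the core, 1.55% the full cAMP response element, 6.75% the AP-1 site, 4.7% the Egr site, 1.47% the CArG box, 2.92% the MEF2 box and 7.59% the TATA box. The absence of a match says only that these letters are not in these 250 bases. Whether any of these motifs bears on the change of Fos or of a member was not tested.

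Gad1, which encodes GAD67, was bright and little spread. It read 3170, 2905.7 and 3202.6 in deprived cortex, against 3188, 3624.3 and 3373 in non-deprived cortex. Deprived replicate 2 was the lowest of the 6 arrays and non-deprived replicate 2 the highest, and the groups met where deprived replicate 3 read slightly above non-deprived replicate 1. The means were 3093 ± 163 in deprived and 3395 ± 219 in non-deprived arrays (SD, n = 3 each). The log2 change was -0.13 (SE 0.09, limma adjusted p = 0.967), with a 95% interval that ran from a 1.26-fold fall to a 1.05-fold rise. A fall of Gad1 larger than 1.26-fold thus lies outside the interval, which rests on the spread between these arrays, and a smaller one lies within it. The smallest fall that the test could have called with 3 arrays a group was not worked out.

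Gad2, which encodes GAD65, was read by a dim probe set. Its signals were 127.3, 201.6 and 118.4 in deprived cortex, against 177.6, 154.2 and 152.7 in non-deprived cortex. The deprived arrays held both the highest value of the 6 (replicate 2) and the 2 lowest. Its mean over all arrays, 155.3, lies close to the 134.7 that the filter required, and without detection calls it is not shown to be above background. The log2 change was -0.14 (SE 0.31, limma adjusted p = 0.981), and the 95% interval, a 1.77-fold fall to a 1.46-fold rise, holds changes of moderate size in either direction. The value was -0.35 without deprived replicate 2 and 0 without deprived replicate 3, so single deprived arrays set its size.

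Slc32a1, which encodes the vesicular GABA transporter, read 2072.8, 1594.8 and 2372.2 in deprived cortex, against 2325.9, 1716.5 and 2374.8 in non-deprived cortex. The array of replicate 2 was the lowest in both groups. The spread within a group was wide for so bright a probe set, with a coefficient of variation of 19.5% in deprived and 17.1% in non-deprived arrays, against 5.26% and 6.45% for Gad1. The log2 change was -0.09 (SE 0.17, limma adjusted p = 0.976; 95% interval from a 1.38-fold fall to a 1.22-fold rise). Without deprived replicate 2 the sign turned, to 0.07, so that array decides the direction of this uncalled difference.

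Pvalb, which encodes parvalbumin, was read by 2 probe sets that were both designed under relaxed rules. The _i suffix marks a set with fewer unique probes than the design asked for, and the _f suffix marks one with probes that can match related transcripts. On the _i set the signals were 4820.2, 3773.2 and 3854.6 in deprived cortex, against 4989.8, 4618.4 and 5141.5 in non-deprived cortex. Deprived replicates 2 and 3 lay below every non-deprived array, and deprived replicate 1 lay above non-deprived replicate 2. The means were 4149 ± 582 and 4917 ± 269 (deprived and non-deprived, SD, n = 3 each). This was the lowest log2 change among the members, -0.25 (SE 0.11; 95% interval -0.49 to -0.01), a 1.19-fold difference. Its unadjusted p was 0.0404 and its limma adjusted p = 0.949, since 298 other tested probe sets had a smaller p. The exact permutation test over the 6 arrays gave p = 0.2 (two-sided, 0.1 being the smallest possible). In all, 23.4% of the tested probe sets had a larger log2 change in either direction. That share is not matched for brightness, and the median SE of all tested probe sets was 0.18, beside 0.11 for this set.

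The _f probe set of Pvalb did not show the same order of arrays. It read 178.2, 156.8 and 213.2 in deprived cortex, against 227.6, 196.4 and 137.2 in non-deprived cortex. Both the highest and the lowest of the 6 values were from non-deprived arrays. Its log2 change was -0.01 (SE 0.28, limma adjusted p = 0.998; 95% interval -0.64 to 0.61), so the interval holds the value of the _i set as well as no change. Over the 6 arrays the 2 probe sets correlated at r = -0.09 (Pearson, a description over arrays that include both groups). The dim set is not shown to be above background. When the log2 signals of the 2 sets were averaged, the log2 change was -0.13 (limma unadjusted p = 0.337). That average gives the dim set the same weight as the bright _i set. It is thus drawn towards the dim set and is no better estimate for Pvalb.

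Calb1, which encodes calbindin, read 1402.5, 1440.6 and 1564.9 in deprived cortex, against 1496.1, 1310.7 and 1389.7 in non-deprived cortex. The highest array was a deprived one and the 2 lowest were non-deprived, while non-deprived replicate 1 lay above deprived replicates 1 and 2. The means were 1469 ± 84.9 in deprived and 1399 ± 93 in non-deprived arrays (SD, n = 3 each). The log2 change of 0.07 (SE 0.1, limma adjusted p = 0.968) had a 95% interval from a 1.12-fold fall to a 1.24-fold rise, the tightest on the side of a fall among the members. It was 0.02 without deprived replicate 3 and 0.12 without non-deprived replicate 1. Calbindin is also abundant in hippocampal neurons, and the 4 tested genes of 12 listed hippocampus markers all had higher means in deprived cortex without any passing the test (median log2 change 0.53). Their summed signal was 1940 to 2521 in deprived arrays and 1477 to 1749 in non-deprived arrays, ranges that do not overlap. Wfs1 carries most of that sum, and without it (a choice made after seeing the data) the sums were 697.3 to 824.1 in deprived arrays and 345.1 to 741.1 in non-deprived arrays, which overlap. The part of this in the Calb1 value was not tested. At least Wfs1 (log2 change 0.41, SE 0.17) and Neurod6 (0.49, SE 0.29) of those 4 genes are also expressed in cortex. The list therefore does not mark hippocampus alone. Neurod6, Pou3f1 (0.57, SE 0.35) and Zbtb20 (0.62, SE 0.49) were dim, with mean signals of 224.2, 249.4 and 170.3.

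Calb2, which encodes calretinin, read 648, 534.8 and 577.3 in deprived cortex, against 646.9, 498.7 and 480.7 in non-deprived cortex. Replicate 1 was the highest array in both groups, at almost the same signal. The means were 586.7 ± 57.2 in deprived and 542.1 ± 91.2 in non-deprived arrays (SD, n = 3 each). The log2 change was 0.12 (SE 0.16, limma adjusted p = 0.967; 95% interval from a 1.18-fold fall to a 1.39-fold rise). Without non-deprived replicate 1 it was 0.25, and without non-deprived replicate 3 it was 0.04.

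**Figure D2:**
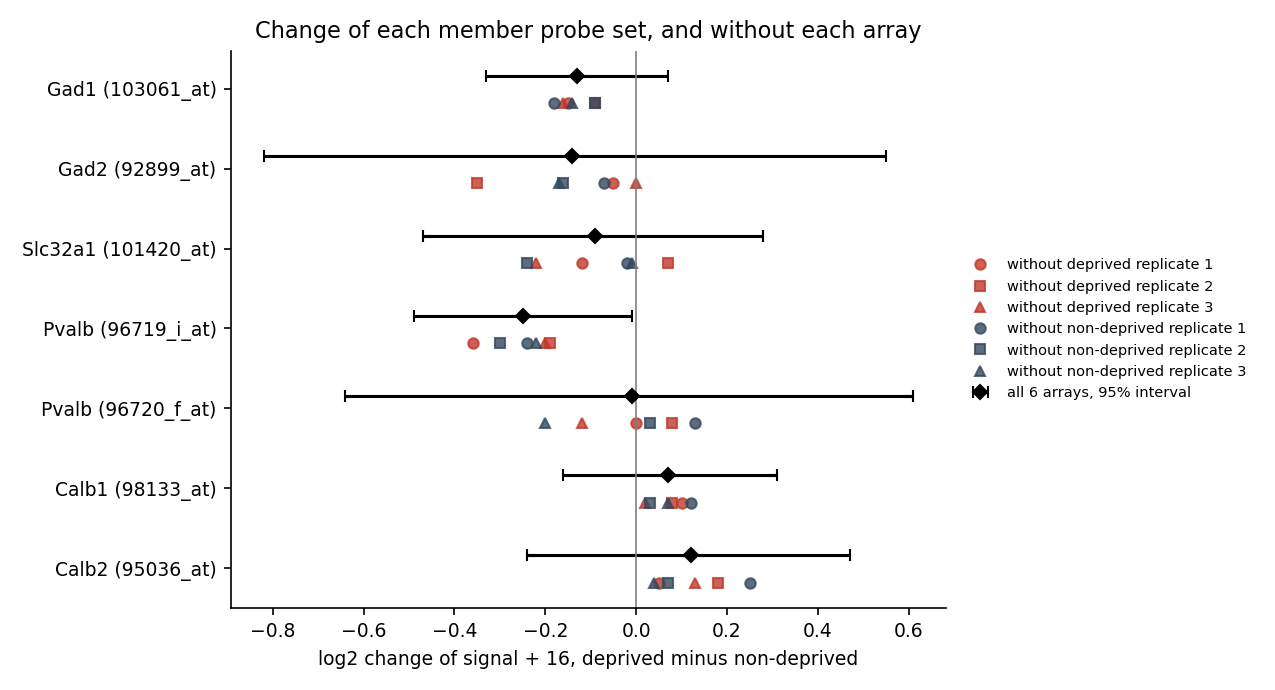
Log2 change of each member probe set, deprived minus non-deprived, on log2(signal + 16). Black diamonds with bars give the value from all 6 arrays and its 95% interval. Coloured markers give the value without 1 array (red for a deprived, dark for a non-deprived array, with the shape giving its replicate number). The interval of the Pvalb _i set alone lies on 1 side of 0, and leaving out an array turned the sign for Slc32a1 and for the Pvalb _f set.

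The members did not rank the arrays alike. Deprived replicate 2 was the lowest array for Gad1, Slc32a1 and the Pvalb _i set and the highest for Gad2. Over the 21 pairs of member probe sets, Pearson correlations across the 6 arrays ran from -0.58 (Gad1 with Calb1) to 0.61 (Calb2 with the Pvalb _f set), and 11 of the 21 were above 0. Gad1 and Slc32a1, whose products act in sequence in the same cells, correlated at 0.15, and Gad1 and the Pvalb _i set at 0.53. With 6 arrays, which include both groups and share their scaling, such values describe these arrays only.

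The genes whose signal followed a member most closely over the 6 arrays were, by the highest Pearson r, Hadh (0.998) and Rtl6 (0.977) for Gad1, and Tram1 (0.987) and Xpo1 (0.981) for Gad2. They were Psmd11 (0.989) and Psmc1 (0.983) for Slc32a1, and Tagln (0.991) and Pgm1 (0.986) for the Pvalb _i set. For Calb1 they were Pcmt1 (0.989) and Kitl (0.983), and for Calb2 Os9 (0.999) and Sec11a (0.997). Each member had 28 to 94 probe sets above an r of 0.9 among 5823 or 5824 compared, so these values are the top of a long list. Whether members follow each other cannot be read from these names, since only the top of each list is given. The Pvalb _i set was also not among the probe sets compared. Between member probe sets themselves the highest r was 0.61, below the 0.9 used here.

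**Figure D3:**
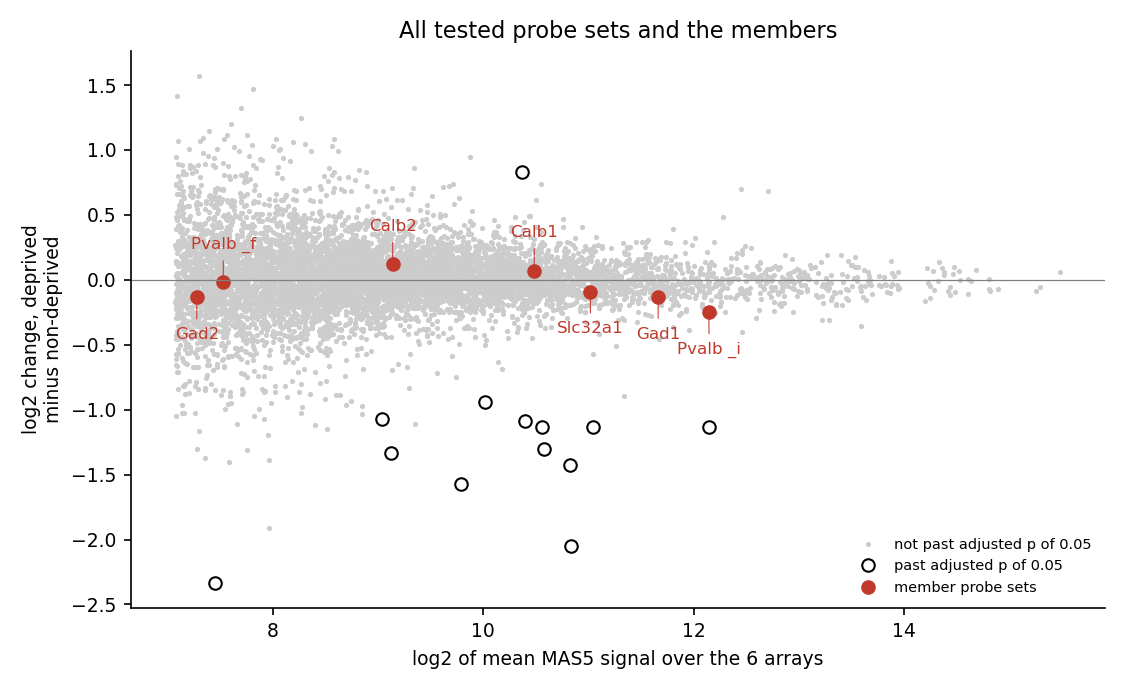
Log2 change (deprived minus non-deprived) against the log2 of the mean MAS5 signal over the 6 arrays for the 7453 tested probe sets. Grey points did not pass an adjusted p of 0.05, open circles did (13), and red points are the members. The members lie within the grey cloud at their brightness, with the Pvalb _i set towards its lower edge.

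Other genes of GABA handling did not pass either. Of 19 genes listed for GABA metabolism and transport, 10 were tested, the 3 GABA members among them. None passed the limma test in either direction, and 0 had an unadjusted p under 0.05, beside 5.09% of all tested probe sets. In 6 of the 10 the mean was lower in deprived cortex, and the median log2 change was -0.06, beside 0.01 over all 5653 genes. The smallest p after Gad1 and Slc38a2 belonged to Slc6a13, a GABA transporter of the meninges (log2 change 0.2, SE 0.15). Slc38a2, a transporter of the GABA precursor glutamine, had a log2 change of 0.29 (SE 0.16).

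On the receiving side of inhibitory synapses, 11 of 24 listed genes were tested and none passed the limma test. At an unadjusted p under 0.05, 1 of the 11 was lower, beside 2.42% of all tested probe sets. Means were lower for 5 and higher for 6, with a median log2 change of 0.04. Gabra2, a GABA-A receptor subunit, read 625.4 ± 99.1 in deprived and 834.8 ± 94.9 in non-deprived arrays (SD, n = 3 each; log2 change -0.41, limma adjusted p = 0.949). Its groups did not overlap, as was so for 10.1% of all tested probe sets. Gabbr1, a subunit of the GABA-B receptor, had a log2 change of 0.11 (SE 0.08), and Gabrd, another GABA-A subunit, -0.26 (SE 0.21). Among perineuronal net genes, whose products surround parvalbumin cells, 4 of 14 were tested and none passed, also at an unadjusted p under 0.05 (median 0.07). The values were 0.59 (SE 0.32) for the hyaluronan synthase Has3, 0.18 (SE 0.16) for the receptor phosphatase Ptprz1 and -0.11 (SE 0.17) for the proteoglycan Ncan. The Has3 probe set was dim, with a mean signal of 177.5 and overlapping groups.

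Other interneuron markers had log2 changes from -0.48 to 0.81, with none past the threshold. Of 37 listed genes 16 were tested, with 7 lower and 9 higher means and a median log2 change of 0.08. At an unadjusted p under 0.05, 3 of the 16 were lower and 1 higher. Of all tested probe sets, 2.42% were lower by that measure and 5.09% met it in either direction. Sst and Npy, neuropeptides of interneurons, had log2 changes of -0.39 (SE 0.08) and -0.42 (SE 0.11), with limma adjusted p = 0.26 and 0.589. The groups did not overlap for Sst and Npy, both lower, nor for Htr3a, which was higher (0.38, SE 0.25). That held for 10.1% of all tested probe sets. Cort, a somatostatin relative, had 0.81 (SE 0.33, limma adjusted p = 0.949). Its probe set was dim, with a mean signal of 207.2 and overlapping groups. The summed signal of the 16 genes was 24230 to 25600 in deprived arrays and 26330 to 28690 in non-deprived arrays. Cck, Cplx1, Sst and Npy are the brightest genes in that sum. The Cck means were 9731 in deprived and 11140 in non-deprived arrays (log2 change -0.2, SE 0.09). Those of Cplx1 were higher in deprived arrays (log2 change 0.05, SE 0.11). The sum follows such bright genes and does not describe the list as a whole, in which 9 of the 16 means were higher.

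Among EF-hand calcium-binding proteins, the wider family of Pvalb, Calb1 and Calb2, 28 of 50 listed genes were tested, those 3 members among them. None passed the limma test. At an unadjusted p under 0.05, 3 of the 28 were lower and 1 higher, beside 2.42% lower and 5.09% in either direction of all tested probe sets. Lower means were found for 13 and higher means for 15, with a median log2 change of 0.03. The smallest p-values belonged to Capn1, a calcium-activated protease subunit (log2 change -0.44, SE 0.13), Cib1, a calcium- and integrin-binding protein (0.46, SE 0.16), and Ppp3r1, the regulatory subunit of calcineurin (-0.16, SE 0.06). The Pvalb _i set followed as the fourth and is itself 1 of the 3 lower.

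**Figure D4:**
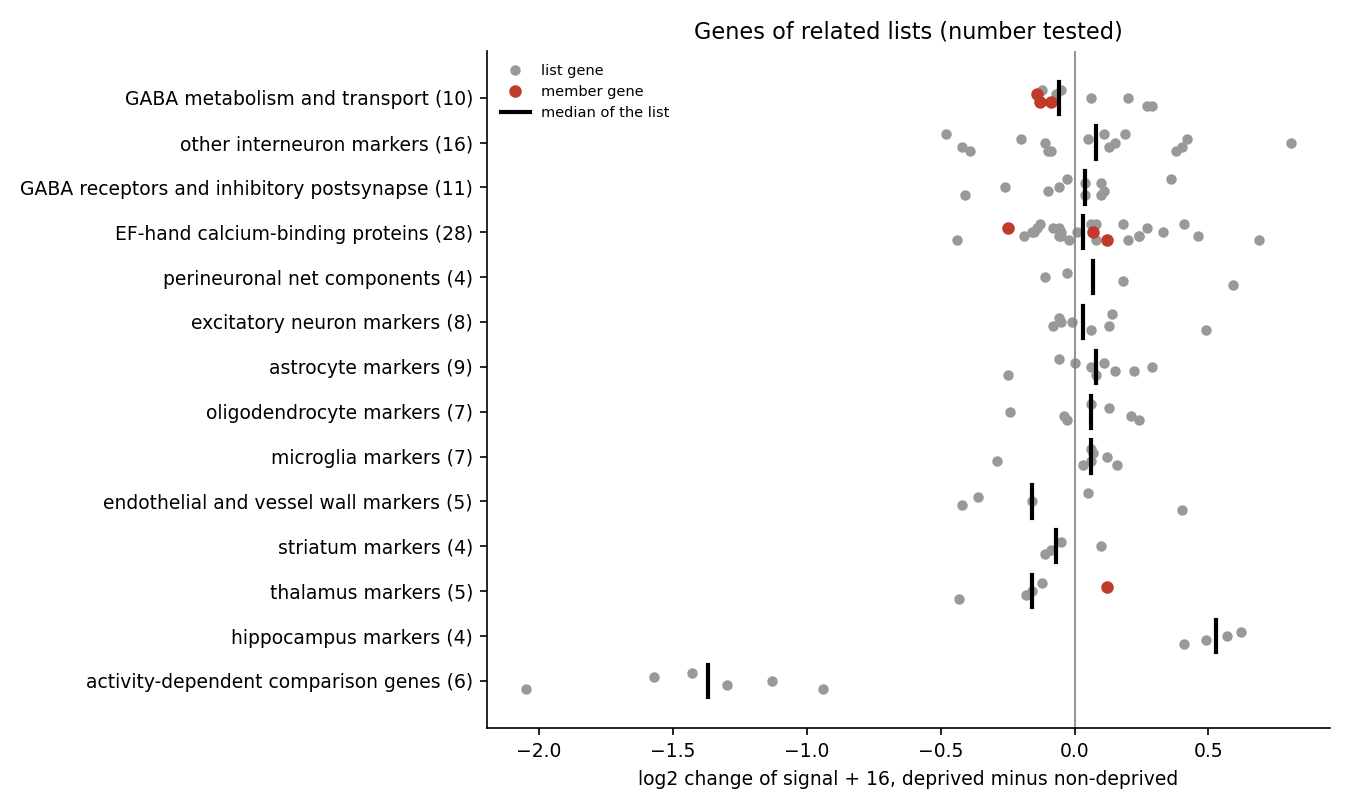
Log2 change (deprived minus non-deprived) of the genes of 14 lists, each by its brightest tested probe set, with the number tested in brackets. Red points are member genes, grey points other genes and black bars list medians. Of the lists shown, the activity-dependent comparison genes alone hold members past the threshold, and all 4 hippocampus markers lie above 0.

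The tissue label was set against 8 marker lists of other cell types and of neighbouring regions. Excitatory neuron, astrocyte, oligodendrocyte, microglia, endothelial, striatum, thalamus and hippocampus markers had 0 of 49 tested entries past the limma threshold. Of all tested probe sets, 0.174% passed it, so few calls would be looked for among so few entries. The member Calb2 is among the thalamus entries, and Neurod6 is on both the excitatory neuron and the hippocampus list. The medians of these 8 lists were 0.03, 0.08, 0.06, 0.06, -0.16, -0.07, -0.16 and 0.53 in that order. At an unadjusted p under 0.05, met by 5.09% of all tested probe sets, the astrocyte list had 1 lower and the hippocampus list 1 higher. The striatum list, which bears on the members because striatal neurons are GABAergic, had a summed signal of 1795 to 2356 in deprived arrays and 2162 to 2346 in non-deprived arrays. The 6 activity-dependent comparison genes (Fos, Nr4a1, Egr1, Egr2, Junb and Bdnf), picked with their fall already known, had a median of -1.37. The 3′ signal of 18S ribosomal RNA stood apart on non-deprived replicate 3, at 2690 against 661 to 981 on the other 5 arrays. Without that array the log2 change was -0.14 for Gad1, -0.01 for Slc32a1 and -0.22 for the Pvalb _i set, and none of the members passed.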

How the data were processed

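Per the submitters' processing notes, the deposited values are MAS5 signal intensity, a linear brightness that the authors summarised per probe set; the version, scanner files and detection calls are not given in the sources used here. The intensity columns had a 2% trimmed mean of 500.3 on every array as deposited, which hides any change in total mRNA, and median signals of 202.8 to 219.7. Array values were brought to that common trimmed mean, 66 control probe sets were set aside, and the 7453 probe sets in the top 60% by mean signal (134.7 or more) entered the test as log2(signal + 16). This pseudocount makes fold changes of dim probe sets smaller. The test was limma 3.58.1 in R 4.3.3 (lmFit and eBayes, trend on intensity). Group was the single term, tests were two-sided, and p-values were adjusted by Benjamini-Hochberg across the tested probe sets. It was tested on simulated data. Precision is limited by the number of arrays.

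Symbols came from the platform annotation, updated by Entrez ID to RefSeq's table (GRCm38.p6): 10855 probe sets had 1 symbol, 396 had several and 1237 had none here. In lists, a gene's brightest tested probe set stands for it. Named were every member probe set, Fos, per list the genes past the threshold or else the 3 with the smallest p (with values for lists close to the members), and the 2 genes most like each member. The members and lists were chosen with earlier results of these data known. Arrays correlated at 0.948 to 0.958 within and 0.945 to 0.961 between groups.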

Additional observations from a re-analysis of the deposited data

How the results depend on the processing

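None of the 7 member probe sets passed under any alternative run: quantile normalization, no further scaling, pseudocounts of 1 and 64, no filter or a top 40% filter on dim probe sets, no intensity trend, an adjusted p under 0.10, leaving out each array, and the replicate block. The top 40% filter left Gad2 and the Pvalb _f set untested. Gad1, the Pvalb _i set, Calb1 and Calb2 kept their direction throughout, and Gad2 ranged from -0.35 to 0 when 1 array was left out. When 1 array was left out, the log2 change ranged from -0.24 to 0.07 for Slc32a1 and from -0.2 to 0.13 for the Pvalb _f set, and the sign turned without deprived replicate 2 for both (0.07 and 0.08) and for the Pvalb _f set also without non-deprived replicate 1 (0.13) or 2 (0.03). The Pvalb _i set ranged from -0.36 (without deprived replicate 1, unadjusted p = 0.00447, limma adjusted p = 0.763) to -0.19 (without deprived replicate 2). Its unadjusted p was 0.0562 after quantile normalization and 0.115 without the intensity trend. The calls among all tested probe sets numbered 7 to 10 when 1 array was left out, against 13. Same-numbered arrays did not share their deviations from the group means (correlations of 0, 0.05 and -0.02). These values do not show whether such arrays come from the same mice. With the replicate block 10 probe sets passed, and the Pvalb _i set had -0.25 with limma adjusted p = 0.896. Named genes of the cell type and region lists that turned sign without 1 array, and their ranges when 1 array was left out, were Tbr1 (-0.01 to 0.29), Slc1a2 (0 to 0.65), C1qc (-0.01 to 0.28) and Penk (-0.2 to 0.02). Gad2 and the Pvalb _f set are limited by their dim signal.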
